A study of Mus musculus with 6 samples.

Results

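The 46 genes described here work in the last stretch of the cell cycle, from the end of G2 phase through mitosis to the separation of the daughter cells. They were listed by symbol, and the kinesin motors of mitosis were kept off the list, apart from Cenpe, whose protein is itself a kinesin motor at kinetochores. On the arrays, 45 of the 46 genes had a probe set annotated to that gene alone, out of 15346 genes tested, and Ccnb1 was not analysed here. Each gene is represented by its brightest probe set, the one with the highest mean over all 6 arrays. The study compared ipsilateral with contralateral retinal ganglion cells (RGCs), neurons of the retina that send their axon to the brain on their own side or across the midline at the optic chiasm. Ipsilateral RGCs and contralateral RGCs were each measured on 3 Affymetrix mouse genome arrays. All 6 samples came from C57BL/6J embryos at E16.5, which the age label gives as E16. In each of 3 rounds of labeling, tetramethylrhodamine dextran (MW 3000) was laid on the cut optic tract for 2 h, and labeled cells from the retinas of 2 litters, pooled by side, were sorted by FACS without DAPI-stained dead cells.

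Some features of the samples limit them as models of the cell types. Each sample is a pool of embryos, far fewer cells were sorted from the ipsilateral side, and RNA of both sides was amplified before hybridization. The study picked these 3 rounds because Zic2 was well enriched in ipsilateral cells by qPCR. A sorted pool can hold cells other than RGCs that carry the dye. In such bulk samples more cells of a dividing type and more RNA per cell cannot be told apart. A further limit is that many of the 46 genes also stand in the list of differing genes that the study drew from these same arrays. They include Aspm, Ccna2, Ccnb1, Ccnb2, Cdca3, Cdca8, Cdk1 (as Cdc2a), Cenpe, Cenpf, Cks2, Incenp, Mki67, Ncapg, Nusap1, Prc1, Smc4, Spc25, Tpx2 and Ube2c. The direction of their difference is therefore not independent evidence. Most of them did not pass the thresholds in the limma fit used here, although the study listed them.

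RGCs are born when retinal progenitor cells leave the cell cycle, and a mature RGC does not divide. In dividing cells, cyclin A and cyclin B with the kinase Cdk1 drive entry into mitosis, condensins compact the chromosomes, and kinetochores built on the centromeres attach them to the spindle. The spindle checkpoint holds the cell until all chromosomes are attached, the anaphase-promoting complex then triggers the destruction of cyclin B and securin, and the midzone and a contractile ring finish the division. Transcripts of these genes accumulate late in the cycle, and in mammals much of this timing is laid to promoters with a cell cycle genes homology region (CHR), bound by MuvB complexes, and CCAAT boxes, bound by NF-Y.

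The promoters of the 4 genes that passed the test of the comparison are shown first, followed by those of the mitotic kinase Cdk1, its partner Ccnb2 and the kinase Plk1, whose difference was the smallest of the list. They run from 250 bases before to 50 bases after the gene start, come from RefSeq on GRCm38.p6, and are written 5′ to 3′ on the gene's strand. Capitals mark a CHR (TTTGAA or TTTAAA) or a CCAAT box, each searched on both strands, so that TTCAAA and ATTGG count as well. Aspm lies at chr1:139454523-139454822 on the plus strand, Cenpf at chr1:189688037-189688336 on the minus strand, and Spc25 at chr2:69206164-69206463 on the minus strand. Cks2 lies at chr13:51644982-51645281 on the plus strand, Cdk1 at chr10:69352863-69353162 on the minus strand, Ccnb2 at chr9:70421505-70421804 on the minus strand, and Plk1 at chr7:122159185-122159484 on the plus strand.
Spc25: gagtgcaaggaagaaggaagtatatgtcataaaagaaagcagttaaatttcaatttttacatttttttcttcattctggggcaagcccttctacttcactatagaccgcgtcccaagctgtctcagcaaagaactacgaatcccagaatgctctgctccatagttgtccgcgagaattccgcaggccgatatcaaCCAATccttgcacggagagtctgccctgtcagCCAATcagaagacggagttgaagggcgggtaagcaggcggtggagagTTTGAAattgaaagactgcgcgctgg
Cenpf: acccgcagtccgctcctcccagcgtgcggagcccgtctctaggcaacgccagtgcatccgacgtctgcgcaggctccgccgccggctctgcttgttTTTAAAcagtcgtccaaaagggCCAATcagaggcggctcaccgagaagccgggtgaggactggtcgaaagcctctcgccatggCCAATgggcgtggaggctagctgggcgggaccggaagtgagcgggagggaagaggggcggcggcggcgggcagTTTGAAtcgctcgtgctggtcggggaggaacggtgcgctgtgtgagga
Aspm: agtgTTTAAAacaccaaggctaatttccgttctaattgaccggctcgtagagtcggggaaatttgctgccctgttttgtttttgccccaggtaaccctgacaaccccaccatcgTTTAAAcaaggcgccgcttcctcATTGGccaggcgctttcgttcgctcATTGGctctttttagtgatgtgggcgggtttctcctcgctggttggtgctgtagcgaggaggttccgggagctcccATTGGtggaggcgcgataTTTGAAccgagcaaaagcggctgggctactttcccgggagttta
Cks2: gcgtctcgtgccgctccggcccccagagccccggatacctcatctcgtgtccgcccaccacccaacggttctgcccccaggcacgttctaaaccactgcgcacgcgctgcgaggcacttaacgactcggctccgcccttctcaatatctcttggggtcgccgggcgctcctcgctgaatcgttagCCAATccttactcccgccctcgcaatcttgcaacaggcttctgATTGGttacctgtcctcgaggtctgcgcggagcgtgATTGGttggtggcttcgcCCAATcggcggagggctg
Cdk1: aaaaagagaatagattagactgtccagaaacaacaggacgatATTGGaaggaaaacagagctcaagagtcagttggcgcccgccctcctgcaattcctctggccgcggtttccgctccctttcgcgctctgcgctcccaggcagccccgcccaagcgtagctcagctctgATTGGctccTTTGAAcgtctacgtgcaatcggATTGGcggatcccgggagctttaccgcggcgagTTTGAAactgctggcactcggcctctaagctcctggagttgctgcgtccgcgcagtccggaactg
Ccnb2: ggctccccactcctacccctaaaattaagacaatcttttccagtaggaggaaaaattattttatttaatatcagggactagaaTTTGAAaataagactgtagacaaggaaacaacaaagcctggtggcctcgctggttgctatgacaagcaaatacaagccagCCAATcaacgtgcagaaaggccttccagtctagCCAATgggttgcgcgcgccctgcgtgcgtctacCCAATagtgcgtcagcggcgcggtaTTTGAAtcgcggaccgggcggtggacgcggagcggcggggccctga
Plk1: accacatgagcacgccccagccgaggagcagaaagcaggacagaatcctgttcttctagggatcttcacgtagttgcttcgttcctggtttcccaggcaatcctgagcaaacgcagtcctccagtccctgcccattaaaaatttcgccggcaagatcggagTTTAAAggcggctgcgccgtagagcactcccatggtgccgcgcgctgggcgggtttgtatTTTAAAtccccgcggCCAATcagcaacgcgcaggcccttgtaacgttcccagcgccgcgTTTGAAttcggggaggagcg

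In 5 of these 7 windows, those of Spc25, Cenpf, Aspm, Ccnb2 and Plk1, a TTTGAA lies in the bases after the gene start. The window of Cks2 holds 4 CCAAT boxes and no CHR. RefSeq windows were at hand for 37 of the 46 genes. A CHR was found in 29 of the 37 (78.4%), against 27.8% of the 27025 promoters of the table and 19.6% of the 12183 promoters of genes tested on the arrays. A CCAAT box was also found in 29 (78.4%), against 37.9% of all promoters and 37.9% of those of tested genes, and both motifs stood together in 26 (70.3%), against 10.9% and 7.72%. At least 2 CCAAT boxes were found in 20 windows (54.1%), against 12.2% and 14%. These are matches of letters and were not tested as binding sites.

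The samples as a whole were checked for the levels of the arrays and of RGC transcripts, while markers of side were not looked at here. The medians of the arrays lay between 5.81 and 6.70 on the log2 scale for ipsilateral RGCs and between 5.80 and 6.65 for contralateral RGCs, and the arrays of a round were closer to each other than to those of other rounds. Of 22 listed pan-RGC genes, 19 were tested and their mean log2 level was 10.15, 10.82 and 10.56 in ipsilateral RGCs, against 10.64, 11.16 and 11.15 in contralateral RGCs, for rounds 1, 2 and 3. The neurofilament gene Nefl had a mean of 13.15 ± 0.16 in ipsilateral and 13.32 ± 0.09 in contralateral RGCs (SD, n = 3 each), so transcripts of RGCs were well detected on both sides. Over all 15346 genes, 55 (0.358%) rose by 2-fold or more in ipsilateral RGCs with a Benjamini-Hochberg adjusted p under 0.05 in limma, the thresholds of the study's methods, and 0 (0%) fell, with 24 lower by 2-fold or more at an unadjusted p under 0.05. At the same thresholds in GeneSpring, the study listed many more genes as higher in ipsilateral RGCs, and some as higher in contralateral RGCs. The units differ, since the study listed genes at any of their probe sets and the 55 are genes at their brightest one. Over all 36029 probe sets kept, 88 passed both thresholds in limma as higher in ipsilateral RGCs. Genes past both thresholds in limma, fitted without the replicate number as a block unless the block is named, are referred to here as called.

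All 45 G2 and M phase genes had a higher mean in ipsilateral than in contralateral RGCs, and 4 were called, against 0.358% of all genes. The 4 were Spc25 and Cenpf of the kinetochore, Aspm of the spindle poles, and Cks2, a small partner of cyclin-dependent kinases. The differences on the log2 scale ran from 0.18 for Plk1 to 3.12 for Spc25, which is 1.14-fold to 8.67-fold, with a median of 1.30 (2.46-fold), against a median of −0.01 over all genes tested. The median standard error of the 45 differences was 0.47. Of the 45 genes, 32 differed by 2-fold or more, against 2.75% of all genes, and 29 of these also had an unadjusted p under 0.05 in limma, against 2.47%. In 40 genes the ipsilateral value was above the contralateral value in all 3 rounds, against 17.6% of all genes, and in 30 the lowest ipsilateral value lay above the highest contralateral value, against 3.84%. Overlap, here and below, sets arrays of different rounds side by side, and the medians of the arrays differ between rounds. The count over rounds compares the sides within a round. None of the contralateral means lay below the log2 level of 4.74 used as the filter on low values, so the genes were not tested through the ipsilateral group alone.

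**Figure D1:**
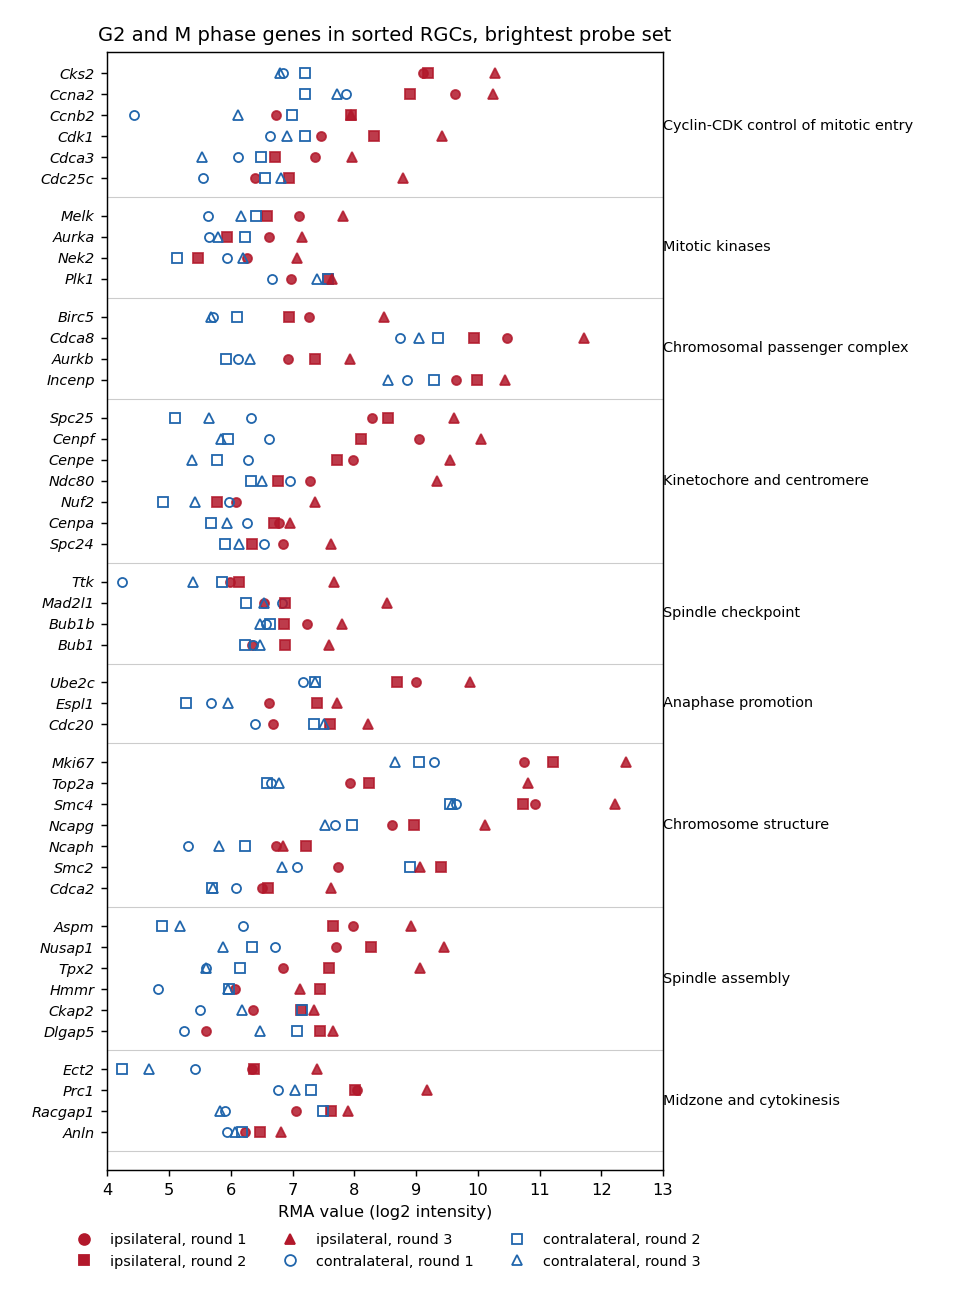
RMA values on the log2 scale (x axis) of the 45 genes (rows, grouped by role), with filled red symbols for the 3 ipsilateral arrays, open blue symbols for the 3 contralateral arrays and 1 symbol shape per round. In 30 of the 45 rows all red symbols lie to the right of all blue symbols, and the red triangle of round 3 is the highest of the 6 symbols in 41 rows.

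With the replicate number of the labels as a block in limma, 0 of the 45 genes were called at their brightest probe set, against 0.319% of all genes (49), while 31 of the 32 genes with a 2-fold difference had an unadjusted p under 0.05. The lowest adjusted p in that fit was 0.0585 for Ccna2, and 8 genes had an adjusted p under 0.1. The median standard error of the 45 differences was 0.32 with the block. For 1 gene on its own, the smallest p of an exact permutation test over 3 and 3 arrays is 0.10, so the calls rest on limma, which shares information on the spread across probe sets.

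Spc25, a subunit of the NDC80 complex that binds spindle microtubules at the kinetochore, had log2 values of 8.29, 8.54 and 9.61 in ipsilateral RGCs, against 6.33, 5.10 and 5.65 in contralateral RGCs, for rounds 1, 2 and 3. Every ipsilateral array was far above every contralateral array, and round 3 was the highest of the ipsilateral arrays. The difference was 3.12 ± 0.47 (SE, n = 3 each; limma adjusted p = 0.0124 and 0.0741 with a replicate block), and the adjusted p was 0.0565 without ipsilateral replicate 3. Cenpf, a large protein of the outer kinetochore, had values of 9.04, 8.10 and 10.05 in ipsilateral RGCs, against 6.62, 5.96 and 5.85 in contralateral RGCs. Its groups did not overlap, and within each round the sides differed by at least 2.14. The difference was 2.92 ± 0.50 (SE, n = 3 each; limma adjusted p = 0.0267 and 0.0923 with a replicate block), and the adjusted p was 0.0766 without contralateral replicate 3 and 0.127 without ipsilateral replicate 3.

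Aspm, which holds microtubules together at the spindle poles and is known for the small brain that its loss causes in humans, had values of 7.98, 7.66 and 8.91 in ipsilateral RGCs, against 6.20, 4.88 and 5.18 in contralateral RGCs. The groups were well apart, and the contralateral array of round 1 was the highest of its group. The difference was 2.76 ± 0.48 (SE, n = 3 each; limma adjusted p = 0.0275 and 0.0842 with a replicate block), and the adjusted p was 0.0894 without contralateral replicate 3 and 0.155 without ipsilateral replicate 3. Cks2 had values of 9.12, 9.19 and 10.28 in ipsilateral RGCs, against 6.85, 7.20 and 6.81 in contralateral RGCs. The contralateral arrays lay close together and all below the ipsilateral ones. The difference was 2.58 ± 0.43 (SE, n = 3 each; limma adjusted p = 0.0246 and 0.0708 with a replicate block), and the adjusted p was 0.155 without ipsilateral replicate 3. It was also above the threshold when contralateral replicate 1 (0.0595) or replicate 3 (0.0919) was left out.

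**Figure D2:**
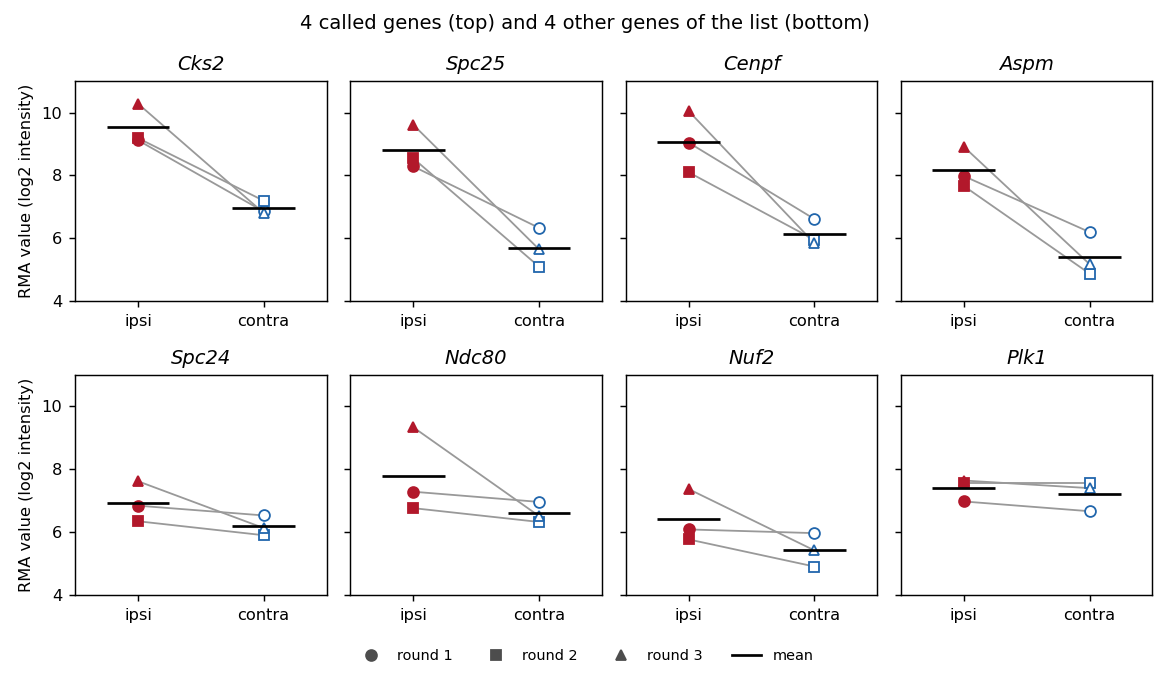
RMA values on the log2 scale (y axis) in ipsilateral (left, filled) and contralateral RGCs (right, open) for the 4 called genes (top row) and for the other NDC80 subunits Spc24, Ndc80 and Nuf2 and for Plk1 (bottom row), with grey lines joining the arrays of a round and black bars at the means of the 3 arrays. The groups do not overlap in any panel of the top row and overlap in every panel of the bottom row.

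All 6 measured genes that control entry into mitosis differed by 2-fold or more and were higher in ipsilateral RGCs in every round, with 1 called (Cks2) and a median difference of 1.59. Ccna2, the cyclin of S and G2 phase, had values of 9.63, 8.91 and 10.24 in ipsilateral RGCs, against 7.87, 7.21 and 7.72 in contralateral RGCs. Its lowest ipsilateral array was more than 1 unit above its highest contralateral array, and the difference was 2.00 ± 0.44 (SE, n = 3 each; limma adjusted p = 0.131 and 0.0585 with a replicate block). Cdk1 itself had values of 7.46, 8.32 and 9.42 in ipsilateral RGCs, against 6.63, 7.20 and 6.91 in contralateral RGCs, and did not overlap either (1.48 ± 0.49, adjusted p = 0.777). Ccnb2, a B-type cyclin, differed by 1.69 ± 0.59 and Cdca3, which helps to destroy the mitosis inhibitor Wee1, by 1.30 ± 0.45, and neither was called. Cdc25c, the phosphatase that activates Cdk1, had values of 6.39, 6.94 and 8.79 in ipsilateral RGCs, against 5.55, 6.55 and 6.82 in contralateral RGCs. Here the groups overlapped, and the ipsilateral array of round 3 stood alone at the top, with a difference of 1.07 ± 0.58 (adjusted p = 1.0).

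The 4 genes filed as mitotic kinases gave the smallest median difference of the role groups (0.59), with 0 called, 1 with a 2-fold difference and 2 higher in every round. Kinases of the list filed under other roles differed by 1.48 (Cdk1), 1.44 (Ttk), 1.29 (Aurkb), 0.74 (Bub1b) and 0.58 (Bub1), so the median depends on the grouping. Plk1, which acts at centrosomes, kinetochores and the midzone, had values of 6.98, 7.57 and 7.64 in ipsilateral RGCs, against 6.67, 7.57 and 7.40 in contralateral RGCs. The sides were nearly level in each round, and equal to 2 decimals in round 2 (0.18 ± 0.42, adjusted p = 1.0). Melk, a kinase with high transcript levels in neural progenitors, had values of 7.10, 6.58 and 7.81 in ipsilateral RGCs, against 5.63, 6.41 and 6.17 in contralateral RGCs. Its groups did not overlap, but in round 2 they differed by 0.17 only (1.09 ± 0.44 over the rounds). Aurka, which matures the spindle poles, differed by 0.68 and had the lower value on the ipsilateral side in round 2 (−0.29). Nek2, which splits the centrosomes, differed by 0.51.

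The chromosomal passenger complex corrects wrong attachments of chromosomes and later acts at the midzone. All 4 of its subunits differed by 2-fold or more, were higher in ipsilateral RGCs in every round and showed no overlap between the groups, with 0 called in limma, 4 with an unadjusted p under 0.05 and a median difference of 1.48. Birc5 (survivin) had values of 7.27, 6.94 and 8.49 in ipsilateral RGCs, against 5.71, 6.10 and 5.67 in contralateral RGCs (1.74 ± 0.46, adjusted p = 0.316). Cdca8 (borealin) had values of 10.48, 9.93 and 11.72 in ipsilateral RGCs, against 8.73, 9.35 and 9.06 in contralateral RGCs (1.66 ± 0.48, adjusted p = 0.461). Both genes differed most in round 3 and least in round 2. The scaffold Incenp had values of 9.65, 9.99 and 10.45 in ipsilateral RGCs, against 8.85, 9.29 and 8.55 in contralateral RGCs (1.13 ± 0.41, adjusted p = 1.0). The kinase of the complex, Aurkb, differed by 1.29 ± 0.41 (adjusted p = 0.693), and each of its rounds favoured the ipsilateral side by 0.80 or more.

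The 7 kinetochore and centromere genes held the widest range, from 0.75 for Spc24 to 3.12 for Spc25, with 2 called, 4 with a 2-fold difference, 7 higher in every round and a median of 1.19. The NDC80 complex has 4 subunits, which in the cell stand in a fixed ratio, and their transcripts differed by unequal amounts. Ndc80 had values of 7.29, 6.76 and 9.33 in ipsilateral RGCs, against 6.96, 6.33 and 6.51 in contralateral RGCs (1.19 ± 0.57, adjusted p = 1.0). Spc24 had values of 6.84, 6.35 and 7.62 in ipsilateral RGCs, against 6.53, 5.90 and 6.13 in contralateral RGCs (0.75 ± 0.44, adjusted p = 1.0). Both overlapped between the groups and differed by under 0.5 in rounds 1 and 2, and Nuf2 differed by 0.98 ± 0.49. At the brightest probe sets, Spc25 had the largest difference of the 4 subunits in all 3 rounds, though the differences between subunits were not tested. The second probe set of Spc25 differed by 0.60, 0.49 and 0.16 in rounds 1, 2 and 3, so this order depends on the probe set.

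Cenpe, which carries chromosomes towards the spindle equator, had values of 7.98, 7.72 and 9.55 in ipsilateral RGCs, against 6.28, 5.78 and 5.37 in contralateral RGCs. No ipsilateral array overlapped the contralateral ones, and the difference of 2.61 ± 0.51 was slightly larger than that of Cks2, but its limma adjusted p of 0.0581 was just above the threshold. Cenpa, the histone H3 variant that marks centromeres, had a difference of 0.85 ± 0.39 without overlap (adjusted p = 1.0).

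The 4 spindle checkpoint genes had a median difference of 0.76, with 0 called, 1 with a 2-fold difference and 2 higher in every round. The checkpoint kinase Ttk (Mps1) had values of 5.98, 6.14 and 7.68 in ipsilateral RGCs, against 4.24, 5.85 and 5.39 in contralateral RGCs (1.44 ± 0.54, adjusted p = 1.0). Bub1b (BubR1) had values of 7.23, 6.87 and 7.81 in ipsilateral RGCs, against 6.57, 6.64 and 6.47 in contralateral RGCs (0.74 ± 0.40, adjusted p = 1.0). Neither gene overlapped between the groups, but both differed by under 0.3 in round 2. The kinase Bub1 had values of 6.34, 6.88 and 7.59 in ipsilateral RGCs, against 6.36, 6.23 and 6.47 in contralateral RGCs (0.58 ± 0.42, adjusted p = 1.0). At this brightest probe set of Bub1 the sides were level in round 1 (−0.02). Its second probe set was higher in ipsilateral RGCs by 1.69, 1.88 and 2.30 in rounds 1, 2 and 3 (limma adjusted p = 0.0995 and 0.0412 with a replicate block). In Mad2l1, which inhibits Cdc20 until chromosomes are attached, the ipsilateral value was the lower in round 1 (−0.30), with 0.77 ± 0.51 over the rounds.

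Of the 3 genes that promote anaphase, 2 differed by 2-fold or more and 0 were called in limma. Ube2c, the ubiquitin-conjugating enzyme of the anaphase-promoting complex, had values of 9.0, 8.69 and 9.87 in ipsilateral RGCs, against 7.16, 7.36 and 7.36 in contralateral RGCs (1.89 ± 0.42, adjusted p = 0.132 and 0.0821 with a replicate block). Its groups were more than 1 unit apart. Cdc20, the activator of the same complex, had values of 6.68, 7.60 and 8.22 in ipsilateral RGCs, against 6.40, 7.35 and 7.51 in contralateral RGCs (0.41 ± 0.48, adjusted p = 1.0). Its groups overlapped, although each round had the higher value on the ipsilateral side. Further probe sets of Cdc20 differed by 1.37 and 0.34. Espl1 (separase), the protease that opens the cohesin ring, differed by 1.62 ± 0.43 and was among the few genes with the largest difference in round 2.

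All 7 genes of chromosome structure differed by 2-fold or more and were higher in ipsilateral RGCs in every round, and 6 showed no overlap, with 0 called in limma, 6 with an unadjusted p under 0.05 and a median of 1.51. Mki67, whose protein Ki-67 coats mitotic chromosomes and is the standard marker of cycling cells, had values of 10.76, 11.22 and 12.41 in ipsilateral RGCs, against 9.30, 9.05 and 8.66 in contralateral RGCs. The lowest ipsilateral array was more than 1 unit above the highest contralateral array, and the difference of 2.46 ± 0.47 narrowly missed the threshold (limma adjusted p = 0.0519). Top2a, which untangles sister chromatids, differed by 2.32 ± 0.62 (adjusted p = 0.336), most of it from round 3 (4.03, against 1.27 in round 1 and 1.65 in round 2).

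The condensin core subunit Smc4 had values of 10.93, 10.73 and 12.23 in ipsilateral RGCs, against 9.65, 9.55 and 9.59 in contralateral RGCs (1.70 ± 0.45, adjusted p = 0.327). Its ipsilateral arrays spread with an SD of 0.81, while its contralateral arrays were nearly level, with an SD of 0.05. The other condensin genes differed by 1.51 ± 0.45 (Ncapg), 1.14 ± 0.41 (Ncaph) and 1.14 ± 0.58 (Smc2), and the groups overlapped in Smc2 alone. Cdca2, which brings a phosphatase to chromatin, had values of 6.51, 6.60 and 7.62 in ipsilateral RGCs, against 6.08, 5.70 and 5.71 in contralateral RGCs (1.08 ± 0.43, adjusted p = 1.0).

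The 6 genes of spindle assembly had the highest median of the role groups (1.67), with 1 called (Aspm) and 4 with a 2-fold difference. Nusap1, which bundles microtubules near chromosomes, had values of 7.71, 8.28 and 9.45 in ipsilateral RGCs, against 6.72, 6.35 and 5.87 in contralateral RGCs (2.17 ± 0.48, adjusted p = 0.134). Tpx2, the activator of Aurora A, differed by 2.05 ± 0.52 (adjusted p = 0.268) and Hmmr, a microtubule-associated protein of the spindle poles, by 1.30 ± 0.48. None of these 3 genes overlapped between the groups. Dlgap5, a protein of kinetochore microtubules, had values of 5.61, 7.45 and 7.65 in ipsilateral RGCs, against 5.25, 7.07 and 6.48 in contralateral RGCs (0.64 ± 0.59, adjusted p = 1.0). It overlapped between the groups, as did Ckap2 (0.68 ± 0.48), whose sides were level in round 2 (−0.01).

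The 4 genes of midzone and cytokinesis were higher in ipsilateral RGCs in every round, with 0 called in limma, 3 with a 2-fold difference and an unadjusted p under 0.05, and a median of 1.25. Ect2, the exchange factor that activates RhoA at the division site, had values of 6.34, 6.38 and 7.39 in ipsilateral RGCs, against 5.42, 4.23 and 4.67 in contralateral RGCs (1.93 ± 0.46, adjusted p = 0.189). Prc1, which bundles midzone microtubules, had values of 8.04, 8.01 and 9.18 in ipsilateral RGCs, against 6.77, 7.29 and 7.05 in contralateral RGCs (1.37 ± 0.44, adjusted p = 0.671). Both showed no overlap. Anln, a scaffold of the contractile ring, had values of 6.23, 6.47 and 6.81 in ipsilateral RGCs, against 5.93, 6.18 and 6.07 in contralateral RGCs, a narrow gap in each round (0.44 ± 0.39, adjusted p = 1.0). Racgap1, the partner of Ect2 at the midzone, differed by 1.12 ± 0.49 with overlap.

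**Figure D3:**
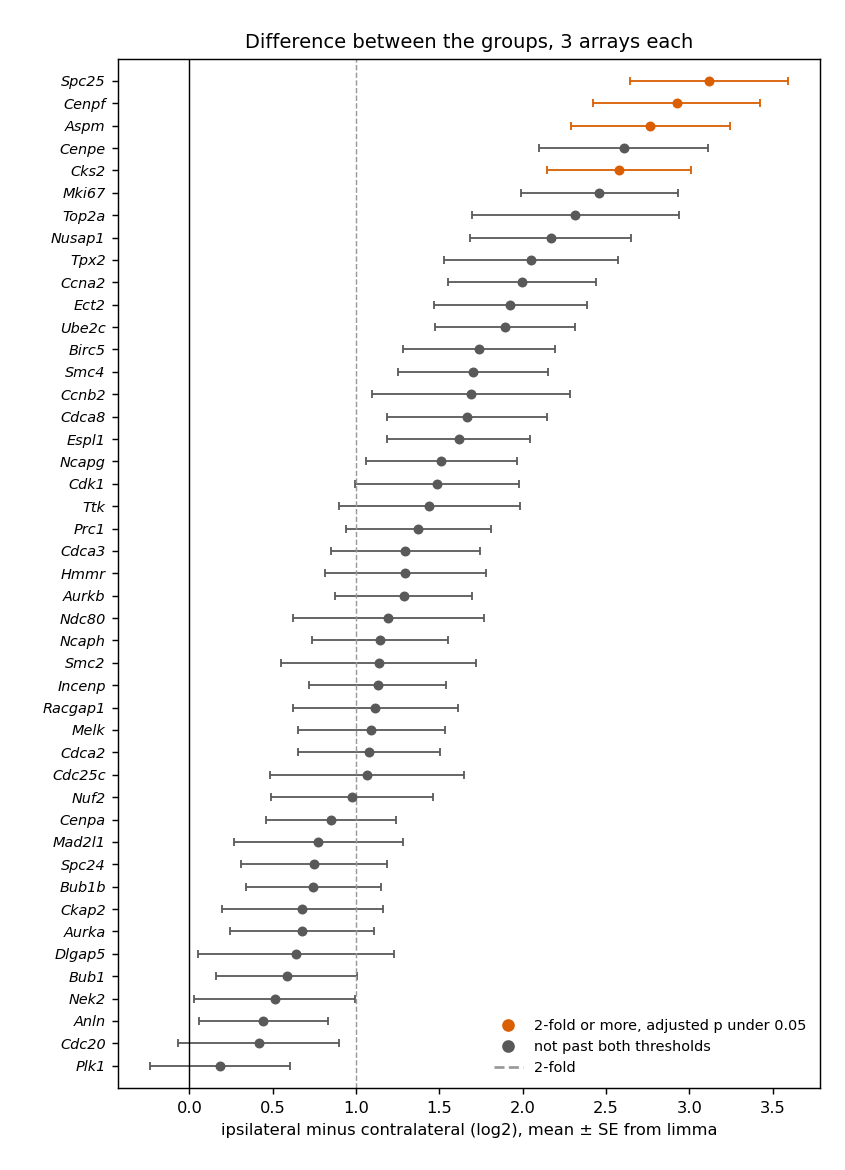
Difference between ipsilateral and contralateral RGCs (x axis, log2; points are means over 3 arrays each and bars the standard error from limma) for the 45 genes in order of size. All points lie right of 0, 32 lie at or right of the dashed line at 2-fold, and the 4 orange points are the called genes.

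The size of the difference varied between rounds, and round 3 stood apart. By round, the 45 genes had a median difference of 0.96, 0.86 and 2.07 in rounds 1, 2 and 3. In round 1, 21 genes differed by 2-fold or more (3.87% of all genes did), in round 2 there were 19 (4.22%), and in round 3 there were 41 (3.64%), while 12 genes passed 2-fold in every round (1.08% of all genes). The difference was largest in round 3 in 40 of the 45 genes, against 29.1% of all genes. The exceptions were Ccnb2, Ncaph and Plk1 with their largest difference in round 1 and Espl1 and Hmmr with theirs in round 2.

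The levels of each side were also compared between rounds. The mean log2 level over the 45 genes was 7.47, 7.66 and 8.68 in ipsilateral RGCs for rounds 1, 2 and 3, against 6.42, 6.64 and 6.48 in contralateral RGCs. The ipsilateral array of round 3 was the highest of all 6 arrays in 41 of the 45 genes and in 19.2% of all genes. The median gene of the 45 was 1.14 higher in the ipsilateral array of round 3 than in that of round 1, against 0.61 for all genes tested, and 1.17 higher than in that of round 2, against −0.12. In contralateral RGCs the median gene of the 45 differed by −0.03 between rounds 3 and 1, against 0.61 for all genes, and by −0.17 between rounds 3 and 2, against −0.13. Set against all genes, round 3 thus differed from round 2 mainly on the ipsilateral side, and from round 1 on both sides, with higher ipsilateral and lower contralateral values. Which arrays were normalized together is not stated, so levels in different rounds are less comparable than the sides within a round.

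Genes with a large difference in a round tended to have a large difference in the others. Across the 45 genes, the differences of rounds 1 and 2 had a Pearson correlation of 0.52, those of rounds 1 and 3 of 0.61 and those of rounds 2 and 3 of 0.71, against 0.39, 0.52 and 0.48 across all 15346 genes. These are correlations across genes measured on the same arrays, and genes are not independent replicates. Without the arrays of round 3, an alternative chosen after seeing the data, the median difference was 0.97 and 0 of the 45 genes were called in limma, against 0.117% of all genes (13 had a 2-fold difference and an unadjusted p under 0.05). Without the ipsilateral array of round 3 alone, the median was 0.98 and 0 were called, against 0.222% of all genes (19 with a 2-fold difference and an unadjusted p under 0.05), with Spc25 at an adjusted p of 0.0565.

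**Figure D4:**
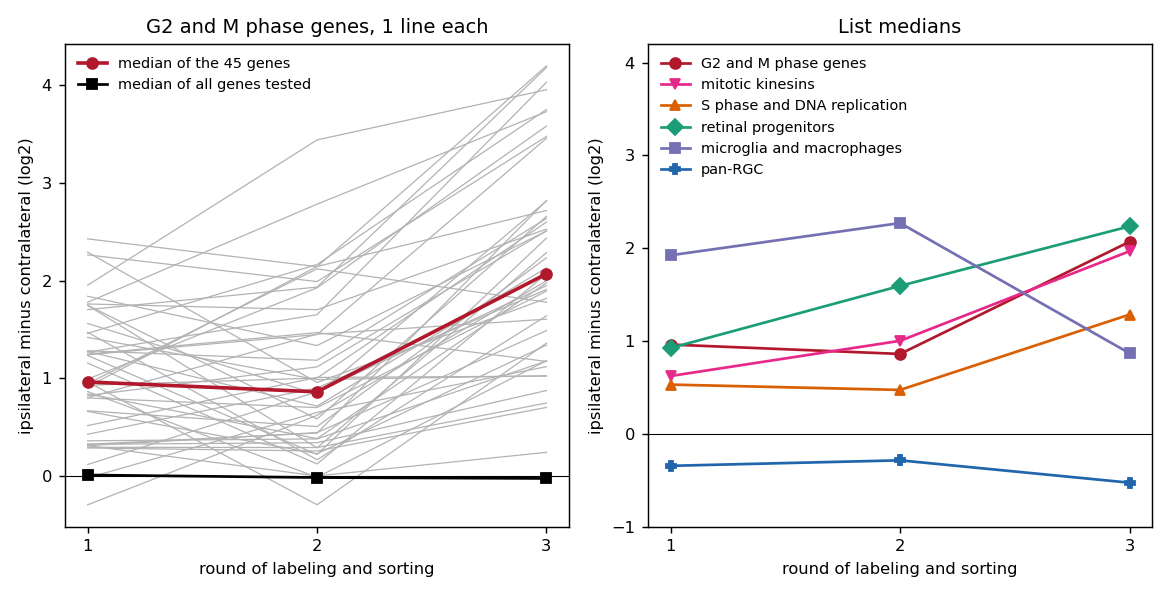
Difference between ipsilateral and contralateral RGCs (y axis, log2) within each of the 3 rounds (x axis), for each of the 45 genes in grey with their median in red and the median of all genes tested in black (left), and as medians of 6 gene lists (right). Lines join values of the same gene or list across rounds, which are replicates without an order. The median of the 45 genes is 2.07 in round 3 and under 1 in the other rounds, while that of microglia and macrophage genes is lowest in round 3.

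Other probe sets of the same genes gave a check on the choice of the brightest. The 45 genes had 102 probe sets, of which 95 were tested and 8 were called, against 0.244% of all probe sets tested. These belonged to 5 genes, the 4 named above and Ncapg, whose second probe set differed by 2.45 (limma adjusted p = 0.0487). Both probe sets of Cks2 were called (2.58 and 3.14), as were 3 of the 5 of Aspm. The second probe set of Spc25 differed by 0.42, against 3.12 at its brightest. The probe sets of Cenpf differed by 2.92, 1.90 and 0.18, the last with means near the filter level (4.85 in ipsilateral and 4.67 in contralateral RGCs). For these genes the size thus rests on the probe set. Among 29 genes with several tested probe sets, all were higher in ipsilateral RGCs in 26, and in 3 (Top2a, Nusap1 and Hmmr) a dimmer probe set had the opposite sign, at −0.17, −0.18 and −0.02. The median spread between the probe sets of a gene was 0.77. With the replicate block, 3 probe sets were called, against 0.208% of all probe sets tested: a second probe set of Aspm (2.34, adjusted p = 0.0334), of Bub1 (1.96, adjusted p = 0.0412) and of Tpx2 (2.05, adjusted p = 0.0496).

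The differences were also set beside the CHR and CCAAT motifs of the promoters. Of the measured genes with a promoter window, 25 had both motifs and a median difference of 1.48, with a range from 0.18 (Plk1) to 3.12 (Spc25). The 6 genes with 1 motif only had a median of 0.89 and a range from 0.44 (Anln) to 2.58 (Cks2). The 5 genes with neither, Nusap1, Ncaph, Melk, Nuf2 and Mad2l1, had a median of 1.09 and a range from 0.77 to 2.17. The 3 ranges overlapped, and the differences between them were not tested.

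Genes of the neighbouring cell cycle steps were counted in the same way. Of 10 mitotic kinesins tested, 0 were called (5 with a 2-fold difference and an unadjusted p under 0.05), 6 differed by 2-fold or more and the median was 1.07, led by Kif20b (2.02) and Kif11 (1.98). With the replicate block, 1 kinesin was called, against 0.319% of all genes. It was Kif23 of the midzone (1.93, limma adjusted p = 0.0412, against 0.103 without the block). Round 3 gave the largest difference in all 10, with medians of 0.62, 1.0 and 1.97 for rounds 1, 2 and 3. Among 54 S phase and replication genes, 0 were called in limma (17 with a 2-fold difference and an unadjusted p under 0.05), 20 differed by 2-fold or more, and the median was 0.74, with medians of 0.53, 0.47 and 1.29 in the rounds. The ribonucleotide reductase subunit Rrm2 (2.39) and the replicative helicase subunit Mcm3 (1.92) had the largest differences.

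The median difference was smaller in 5 further lists. The 15 genes listed with the anaphase-promoting complex core had a median of 0.04, with 1 past 2-fold, its inhibitor Fbxo5 (1.32). Other condensin and cohesin genes had a median of 0.24 over 15 genes, and 15 regulators of G2 and M transcription a median of 0.20, with Myb (2.07) and E2f8 (1.88) at the top. The 28 other kinetochore and centromere genes had a median of 0.48, led by Cenpk (1.88) and Knl1 (1.81), and 30 other genes of G2, spindle and division a median of 0.56, led by Cep55 (2.14) and Tacc3 (1.73). In these 5 lists 0 genes were called in limma, and those with a 2-fold difference and an unadjusted p under 0.05 numbered 1, 3, 2, 6 and 7 in the order given. None of these lists was tested against the 45 genes.

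Markers of other cells moved with the sides as well. The 22 retinal progenitor genes tested had a mean log2 level of 9.04, 9.55 and 9.998 in ipsilateral RGCs, against 8.02, 8.05 and 8.01 in contralateral RGCs, for rounds 1, 2 and 3. Their median difference was 1.54, and by round it was 0.93, 1.59 and 2.24. In limma 5 were called, against 0.358% of all genes (0 with a replicate block, against 0.319%). Called genes such as Sox2 and Sox9 also stand in the list of differing genes that the study drew from these same arrays. Round 3 gave the largest difference in 14 of the 22, and no progenitor gene lay below the filter level on either side. Vim, an intermediate filament of progenitors and glia, averaged 12.47 ± 0.44 in ipsilateral and 11.65 ± 0.37 in contralateral RGCs, and Pax6, which RGCs and amacrine cells also express, 12.15 ± 0.27 and 12.12 ± 0.20 (SD, n = 3 each). Of the 16 genes of neurogenic precursors 1 was called (0.358% of all genes were), with a median difference of 0.53. The pan-RGC genes were lower in ipsilateral RGCs in all rounds in 18 of 19, against 3104 of all 15346 genes. Their median was −0.44, with 0 called in limma (0 with a 2-fold difference in either direction).

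Microglia and macrophage genes were also higher in ipsilateral RGCs, but with another pattern over the rounds. The mean log2 level of 33 such genes was 7.37, 7.98 and 7.35 in ipsilateral RGCs, against 4.73, 5.75 and 5.63 in contralateral RGCs, and 2 of the ipsilateral and 11 of the contralateral means lay below the filter level. Of 31 tested, 12 were called, against 0.358% of all genes (11 with a replicate block, against 0.319%). Called genes such as Csf1r and C1qb also stand in the study's list from these same arrays. The median difference was 1.92, 2.27 and 0.87 in rounds 1, 2 and 3, with round 3 the largest in 2 of 31. The lysosomal membrane gene Laptm5 averaged 11.24 ± 0.37 in ipsilateral and 6.63 ± 1.53 in contralateral RGCs and the cathepsin Ctss 10.75 ± 0.20 and 5.46 ± 0.88 (SD, n = 3 each). Of 30 immediate early genes 2 were called (0.358% of all genes were), with a median of 0.82 and medians of 0.80, 0.47 and 0.73 in rounds 1, 2 and 3. Lists of endothelial, pigment, glial, photoreceptor, amacrine, blood, lens and mesenchyme genes held 0 called genes in limma (0 to 2 per list with a 2-fold difference and an unadjusted p under 0.05), with medians from 0.01 to 0.54. The part of progenitors, microglia or any other cells in the difference of the G2 and M phase genes was not tested.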

How the data were processed

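RNA of rhodamine-labeled cells sorted from pooled retinas was amplified (Ovation Pico WTA) and hybridized to Affymetrix mouse genome arrays. As deposited, each probe set has a log2 intensity, which the authors made with RMA in Affymetrix Expression Console 1.1. The version of RMA and which arrays were normalized together are not given in the sources used here. The authors ran the comparison in GeneSpring at a 2-fold change and a Benjamini-Hochberg corrected p under 0.05, and named neither a test nor a filter.

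Of 45101 probe sets, 64 controls were left out, and 36029 with a mean at or above the 20th percentile (log2 4.74) were kept. The platform annotation gave 1 gene to 34945 probe sets, more than 1 to 932 and no gene to 9160. Of the Entrez identifiers, 34741 were found in RefSeq, those of all 45 genes included. Ipsilateral and contralateral RGCs were compared across all probe sets with limma 3.58.1 (lmFit and eBayes) in R 4.3.3, without a block, and p-values were adjusted over all probe sets kept. The study's methods name no paired test, so the block was run as an alternative, although the replicate numbers pair the samples. Calls and adjusted p-values given without mention of the block ignore this pairing. The fit was tested on simulated data. Counts and figures were made with Python 3.11.15, pandas 2.3.3 and matplotlib 3.10.9.

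The replicate numbers pair the samples: both sides of a round were treated alike, and after centring each group, arrays with the same number correlated at 0.511, 0.541 and 0.612, and arrays with different numbers at −0.353 to −0.207. The median standard error over all probe sets was 0.44 without and 0.17 with the block.

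The G2 and M phase genes and all other lists were chosen with earlier results of these data known. Values of every array are given for the called genes and, in each role group, for the genes with the highest mean level and the largest and smallest difference. Those of Cdk1, Cenpe and Ndc80 were added after their values were seen. The labels call the replicates biological, and the number of arrays limits the precision. Alternatives were the replicate block, no filter or a filter at the 50th percentile (log2 6.25), a second quantile normalization, centring of each array, the mean over a gene's probe sets, eBayes with trend and robust estimation, no fold threshold, and leaving out each array.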

Additional observations from a re-analysis of the deposited data

How the results depend on the processing

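The count of G2 and M phase genes called in ipsilateral RGCs was 4, with 0.358% of all genes called, and both moved with the processing. With the replicate block the count was 0 (0.319% of all genes). A filter at the 50th percentile, which tests fewer probe sets and 39 of the 45 genes, gave 9 (0.81% of all genes), the mean over a gene's probe sets 9 (0.567%), and an intensity trend with robust estimation 11 (0.743%). Of the genes called with the 50th percentile filter, Spc25, Cenpe, Cenpf and Aspm had contralateral means below its level (5.70, 5.81, 6.14 and 5.42). These genes passed that filter only through their ipsilateral values. A second quantile normalization gave 1 (0.326%) and centring of the arrays 2 (0.443%), and rounds 1 and 2 alone, added after seeing the data, 0 (0.117%). No filter (0.253%) and no fold threshold gave 4 each. Leaving out 1 array gave 0 to 10: 0 without ipsilateral replicate 3 (0.222%), 1 without contralateral replicate 3 (0.228%), 9 without ipsilateral replicate 2 (0.508%) and 10 without ipsilateral replicate 1 (0.795%). Apart from the fits with fewer samples or probe sets, the cause was not tested.

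The median difference was 0.97 to 1.56 over all alternatives run, including 0.98 to 1.56 with 1 array left out, the count of genes higher in all rounds 35 to 43, and that of genes without overlap 26 to 38. The 35 came from the filter at the 50th percentile, where 39 genes were tested, and groups with fewer arrays overlap less readily. Shares over all genes are given for the main setting only (17.6% and 3.84%), so these counts are not comparable between settings. Spc25 was called under each alternative except the replicate block, the quantile normalization, rounds 1 and 2 alone, and the fit without ipsilateral replicate 3. The other called genes lost their call in those fits too, except Cks2 after quantile normalization, and each lost it without contralateral replicate 3. Cks2 also lost it without contralateral replicate 1, Cenpf and Aspm after centring, and Cenpf with the mean over its probe sets. Of the single differences, only that of Plk1 changed sign, to −0.0888 without contralateral replicate 1 (0.394 without ipsilateral replicate 1). Array intensities give no counts, and 3 arrays a group limit what could be called.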
